A study of Mus musculus with 61 samples.

Results

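The genes described here encode the collagen chains, the laminin chains and the integrins, that is, the main structural proteins of the extracellular matrix and the receptors through which cells hold on to it. They were chosen by symbol, as genes named as a collagen alpha chain, a laminin alpha, beta or gamma chain, or an integrin alpha or beta subunit. This gave 80 of the 46078 genes in the count table, of which 43 encode collagen chains, 11 laminin chains, 18 integrin alpha subunits and 8 integrin beta subunits. Of these, 73 passed the filter on low counts and were tested among 24004 genes. The 7 that did not pass were Itgal, Itga8, Itgax, Itgad, Col13a1, Col6a2 and Col19a1.

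Mouse pancreatic ductal organoids from C57BL/6 animals, kept in Matrigel, were infected with lentiviruses carrying doxycycline-inducible GFP-Ngn3, LSSOrange-Pdx1 and tdTomato-MafA together with a Tet-On transactivator, and given doxycycline for 8 days. Cells were then sorted by their fluorescent reporters into pools of 50 cells, and each pool was sequenced. Ngn3 was either wild type (WT) or a phospho-mutant (6SA) in which serines that are Cdk targets are changed to alanine. In each of the WT and the 6SA cultures, 3 sorted populations carried the Ngn3 reporter (with Pdx1, with MafA, or with both) and 3 did not (Pdx1, MafA, or both without Ngn3), which makes 12 conditions.

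The cells without the Ngn3 reporter are the comparison throughout, so every cell compared, on either side, came from an infected and doxycycline-treated culture and carried Pdx1, MafA or both. Uninfected cells and cells with Ngn3 alone were not analysed here. Replicates 1 and 2 were at passage 2 and replicate 3 at passage 5, so passage 5 and replicate 3 cannot be told apart. The labels do not tie replicates to separate animals, and p-values therefore measure the spread between these samples, part of which may be technical. With Ngn3 there were 3 samples in each condition except 2 for 6SA Ngn3 with Pdx1 and MafA. Without Ngn3 there were 2 samples for WT Pdx1, WT MafA and 6SA Pdx1, and 3 for the other conditions. In each condition with 2 samples the missing one was replicate 3, so Pdx1 without Ngn3 had no passage 5 sample. Replicate 3 held 5 samples with Ngn3 and 3 without, and the main model had no passage term. Altogether 17 samples carried Ngn3 and 15 did not.

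Of 61 libraries, 58 held over 1000000 gene counts and were kept, and technical repeats of a sample were summed. The 32 sample totals ran from 2579583 to 19461008 counts with a median of 8490758.5, and the limit that a count of 0 allows, 3 counts, came to between 0.154 and 1.163 CPM depending on the sample. The limits cover counting error only. CPM (counts per 1000000) was taken after scaling by TMM factors, which ran from 0.697 to 1.183. As a check of the labelled cell type, the duct markers were measured: Krt7, at 619 to 2233 CPM, Cdh1, at 255 to 760 CPM, and Epcam, at 84.3 to 2358 CPM, were present in all samples. The 12 duct markers summed to 6642 to 9916 CPM without Ngn3 and 1808 to 6351 CPM with Ngn3, and 8 of the 12 fell. The 12 endocrine markers, Chga and Neurod1 among them, summed to 23.8 to 107 CPM without Ngn3 and 1173 to 15047 CPM with Ngn3, and all 12 rose. In pools of cells, fewer cells of a type and less RNA per cell cannot be told apart, and the part that these marker shifts have in the results below was not tested.

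Epithelial cells rest on a basement membrane, a sheet in which a network of laminin heterotrimers lies beside a network of collagen IV. Integrins are alpha and beta heterodimers that span the cell membrane, bind these proteins outside the cell and couple them to the cytoskeleton inside. Fibrillar collagens form the fibres of connective tissue, and the FACIT collagens, such as collagens IX, XII and XIV, sit on the surface of such fibres. In the developing pancreas, epithelial cells that switch on Ngn3 leave the duct-like epithelium and become endocrine cells.

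The promoters of 4 members are shown, 2 of genes higher and 2 of genes lower with Ngn3, chosen after their values were seen, because Ngn3 is a basic helix-loop-helix protein, a class that binds the E-box CANNTG. The 250 bases before each annotated start are given 5′ to 3′ on the strand of the gene, from RefSeq on GRCm38.p6, with E-box matches in capitals. The E-box was searched in full on both strands, on which its pattern reads the same.

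Itga4, higher with Ngn3, at chr2:79255176-79255425 on the plus strand: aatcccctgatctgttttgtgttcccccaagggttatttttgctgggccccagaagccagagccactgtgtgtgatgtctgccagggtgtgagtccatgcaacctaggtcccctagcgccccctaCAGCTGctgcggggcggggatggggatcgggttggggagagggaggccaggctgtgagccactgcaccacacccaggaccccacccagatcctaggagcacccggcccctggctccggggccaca
Col9a2, higher with Ngn3, at chr4:121039316-121039565 on the plus strand: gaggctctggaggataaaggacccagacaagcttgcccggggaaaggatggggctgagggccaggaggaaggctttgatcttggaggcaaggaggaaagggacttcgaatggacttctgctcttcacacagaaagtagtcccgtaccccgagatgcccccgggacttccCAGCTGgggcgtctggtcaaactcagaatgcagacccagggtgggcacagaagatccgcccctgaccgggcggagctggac
Itga2, lower with Ngn3, at chr13:114932101-114932350 on the minus strand: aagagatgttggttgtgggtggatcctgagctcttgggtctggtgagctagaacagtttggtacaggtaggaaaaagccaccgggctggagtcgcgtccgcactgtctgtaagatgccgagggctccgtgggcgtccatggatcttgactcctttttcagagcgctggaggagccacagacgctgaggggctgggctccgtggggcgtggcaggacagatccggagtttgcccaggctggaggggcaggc
Itgb6, lower with Ngn3, at chr2:60722604-60722853 on the minus strand: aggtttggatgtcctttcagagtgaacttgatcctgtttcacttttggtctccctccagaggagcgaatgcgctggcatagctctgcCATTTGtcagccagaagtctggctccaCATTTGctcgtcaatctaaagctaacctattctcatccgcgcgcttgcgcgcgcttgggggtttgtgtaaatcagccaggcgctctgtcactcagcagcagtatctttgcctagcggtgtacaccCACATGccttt

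The Itga4 and Col9a2 windows each held 1 match, in both cases the letters CAGCTG, which lie inside the E-box pattern, and these 2 windows were picked after values were seen. The Itgb6 window held 3 matches and the Itga2 window none. Over the promoters of 27026 genes, 66.1% of windows of this length held an E-box and 12.7% held CAGCTG. Promoters were found for 57 members, of which 63.2% held an E-box and 21.1% held CAGCTG. These letters were found in 3 of 6 promoters of members higher with Ngn3 and in 3 of 10 of members lower with it. CAGATG or its reverse complement was found in 0 of the 6 and 4 of the 10, beside 14.5% of all promoters. CACCTG or its reverse complement was found in 1 of the 6 and 1 of the 10, beside 17.1%. A match describes letters in the window and not binding, and a window with none describes these 250 bases alone.

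Cells with Ngn3 differed from cells without it in 27 of the 73 members, 10 higher and 17 lower, in the contrast averaged over the 6 pairs of conditions (edgeR quasi-likelihood test, Benjamini-Hochberg adjusted p under 0.05 over all genes tested). That is 37% of the members beside 21.5% of all genes tested. Higher members were 13.7% beside 11.1% of all genes, and lower members 23.3% beside 10.5% of all genes. The median log2 fold change was -0.01 over the members and 0.07 over all genes. The lower members included the collagen-binding integrin alpha subunits Itga1 and Itga2, the epithelial beta subunits Itgb4 and Itgb6, and 5 of 11 laminin chains. The higher members included the leukocyte-type integrin Itga4, the laminin chain Lama1 and collagen chains known from cartilage, Col9a2, Col9a3 and Col11a2.

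**Figure D1:**
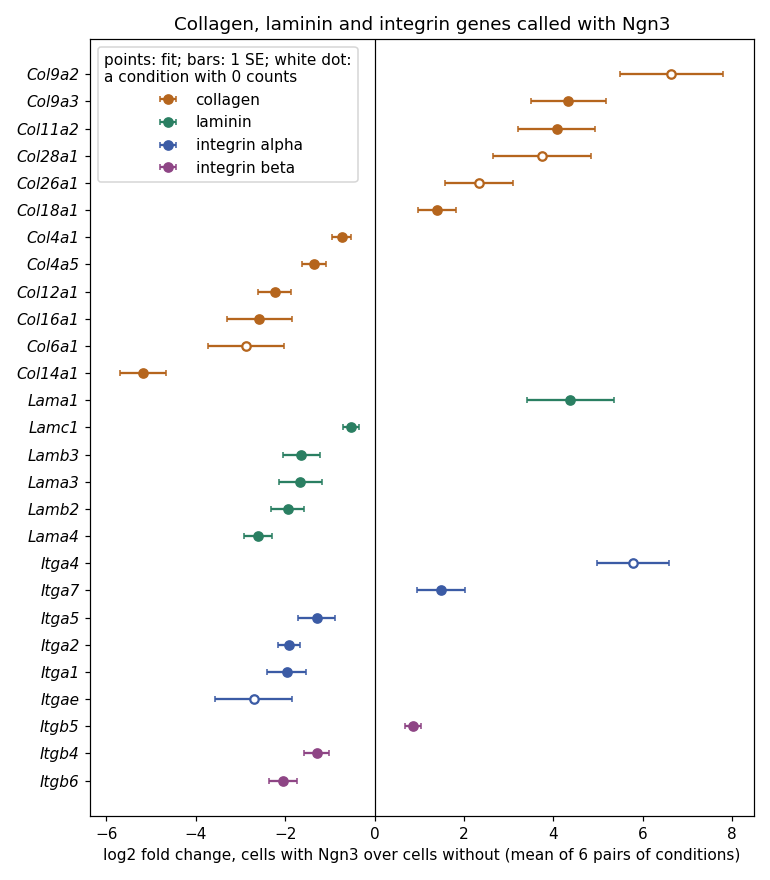
Log2 fold change of the 27 members called in cells with Ngn3 against cells without, averaged over 6 pairs of conditions, with bars of 1 SE and colours by family. Itga4 at 5.78 and Col9a2 at 6.64 stand farthest to the right and Col14a1 at -5.18 farthest to the left, and a white dot marks genes with 0 counts in every sample of at least 1 condition, whose fitted size depends on a prior count.

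The 27 calls varied in how far the samples of both sides separated. By the median within a replicate number, 20 of the 27 moved the same way in all 3 replicate numbers, and 21 had the same sign in all 6 pairs of conditions. Only Itga2 had every sample with Ngn3 below every sample without it, a pattern held by 0.15% of all genes tested. None of the called members had every sample with Ngn3 above all others, a pattern held by 0.542% of all genes. For members with a condition at 0 counts throughout, the fitted fold depends on the prior count, and the ratio of group means is given instead where it is named. Some members with a condition at 0 throughout, Itga4 and Col9a2 among them, were still estimated and called. For 15 others the averaged contrast had no estimate. A model with 1 Ngn3 term, chosen after seeing the data, gives those members an estimate and is described further on.

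Itga2 encodes the alpha subunit that pairs with Itgb1 into a collagen receptor. Its level was 57.6 to 130 CPM in the 15 samples without Ngn3, with a median of 90.9, and 2.51 to 57.3 CPM in the 17 samples with Ngn3, with a median of 31.3. The groups did not overlap, in any replicate number. The fall was -1.92 on the log2 scale (SE 0.25, adjusted p = 1.22e-06). Among the cells with Ngn3, the mean was 43.1 ± 10 CPM (SD, n = 6) with Pdx1, 32.3 ± 9.11 CPM (n = 6) with MafA and 11.1 ± 10 CPM (n = 5) with both.

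Itga1 encodes another alpha subunit that pairs with Itgb1 to bind collagen. It lay at 5.77 to 20 CPM without Ngn3 and 0.13 to 10.2 CPM with Ngn3, with medians of 10 and 2.46 CPM. The groups overlapped in replicate 2 only, and the log2 fold change was -1.97 (SE 0.43, adjusted p = 0.00106). The partner subunit Itgb1, at 141 CPM per kilobase of exon the most abundant member per length, lay at 415 to 1001 CPM without Ngn3 and 230 to 1218 CPM with Ngn3. It gave a log2 difference of -0.29 (SE 0.18, adjusted p = 0.318), which did not pass the test.

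Itgb6 encodes the beta subunit that pairs with Itgav into an epithelial receptor known for activating latent TGF-beta. It lay at 47.7 to 164 CPM without Ngn3 and 1.22 to 64.5 CPM with Ngn3, with medians of 94.4 and 27.4 CPM. The groups were apart in replicates 1 and 2 and overlapped in replicate 3, at passage 5. Its log2 fold change was -2.05 (SE 0.32, adjusted p = 2.18e-05). The lowest levels were in cells with Ngn3, Pdx1 and MafA, where the WT samples read 4.46, 6.0 and 44 CPM and the 6SA samples 1.22 and 10.5 CPM. The 44 CPM of WT replicate 3 is the passage 5 sample, and it stood near the cells with Ngn3 and Pdx1.

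Itgb4 pairs with Itga6 into the laminin receptor of hemidesmosomes, the rivets that hold epithelial cells to the basement membrane. Its medians were 102 CPM without Ngn3 and 72.8 CPM with Ngn3, the ranges of 79.1 to 221 and 4.21 to 153 CPM overlapped, and the log2 fold change was -1.3 (SE 0.27, adjusted p = 0.000703). The difference was largest in replicate 1, where the log2 ratio of group means (0.1 CPM added to each) was -1.48, against -0.82 in replicate 2 and -0.11 in replicate 3. Its partner Itga6 had medians of 95.5 and 88.5 CPM and a log2 difference of -0.22 (SE 0.18, adjusted p = 0.518). Itgb4 shares exon bases with a gene on the other strand, as does Itgav, and the strand setting of the counting is not given in the sources used here.

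Other alpha subunits that fell were Itga5, which makes the classical fibronectin receptor with Itgb1, and Itgae, known from T cells that lodge in epithelia. Itga5 lay at 7.82 to 93.7 CPM without Ngn3 and 1.32 to 83.0 CPM with Ngn3, with overlapping groups and a log2 fold change of -1.3 (SE 0.41, adjusted p = 0.0216). Itgae was near the counting limit, with medians of 1.05 and 0 CPM, and its means differed 2.81-fold (adjusted p = 0.0248). The call was lost in 6 of 44 alternatives for Itga5 and in 9 for Itgae. Itga3, a laminin receptor subunit and with 64.7 CPM per kilobase the second most abundant member per length, had medians of 446 and 238 CPM, overlapping groups and a log2 difference of -0.56 (SE 0.23, adjusted p = 0.0941). Itgav, the partner of Itgb5, Itgb6 and Itgb8, had medians of 195 and 243 CPM and a log2 difference of -0.01 (SE 0.22, adjusted p = 1).

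Itga4 encodes the alpha subunit that binds VCAM1 and fibronectin and is best known from migrating leukocytes. Without Ngn3 it was at 0 in 7 of 15 samples and at most 1.01 CPM, with a median of 0.0901 CPM. With Ngn3 it ranged from 0 to 19.3 CPM with a median of 3.47 CPM. In replicates 1 and 2 every sample with Ngn3, at 2.49 to 19.3 CPM, was above every sample without it, whereas in replicate 3 the ranges of 0 to 1.36 and 0 to 0.857 CPM overlapped. The group means were 6.02 and 0.244 CPM, a 24.7-fold ratio, and the test gave an adjusted p of 6.17e-06. Its exons overlap those of Cerkl on the other strand. Leukocyte markers summed to 1.01 to 48.4 CPM with Ngn3 and 2.16 to 28.1 CPM without, and 2 of the 11 listed were at 0 in every sample. Of the 5 that passed the filter, Cd79a and Fcer1g had no estimate, each with a condition at 0 throughout, and could not be called. Csf1r was called lower, and Cd68 and Coro1a were not called. Their part in the rise of Itga4 was not tested. The ligand Vcam1 moved the other way, with a median of 187 CPM without and 60.5 CPM with Ngn3 (log2 fold change -2.93, SE 0.39, adjusted p = 2.23e-06).

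Itgb5, another partner of Itgav and a vitronectin receptor subunit, was 15.8 to 48.4 CPM without Ngn3 and 14.5 to 139 CPM with Ngn3, with medians of 31.6 and 51.1 CPM. The groups overlapped, and the lowest of all samples was WT Ngn3 with Pdx1 replicate 2. The log2 fold change was 0.86 (SE 0.18, adjusted p = 0.000852). The highest levels were those of WT Ngn3 with MafA, at 139, 97.7 and 95.1 CPM. Itga7, a laminin receptor subunit typical of muscle, had medians of 2.25 CPM without and 9.51 CPM with Ngn3 and passed narrowly (log2 fold change 1.49, SE 0.54, adjusted p = 0.0481), a call lost in 27 of 44 alternatives, and it shares exon bases with Mettl7b. Itgb8, the remaining epithelial partner of Itgav, had medians of 1.96 and 3.33 CPM and did not pass (log2 difference 0.98, SE 0.53, adjusted p = 0.222).

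**Figure D2:**
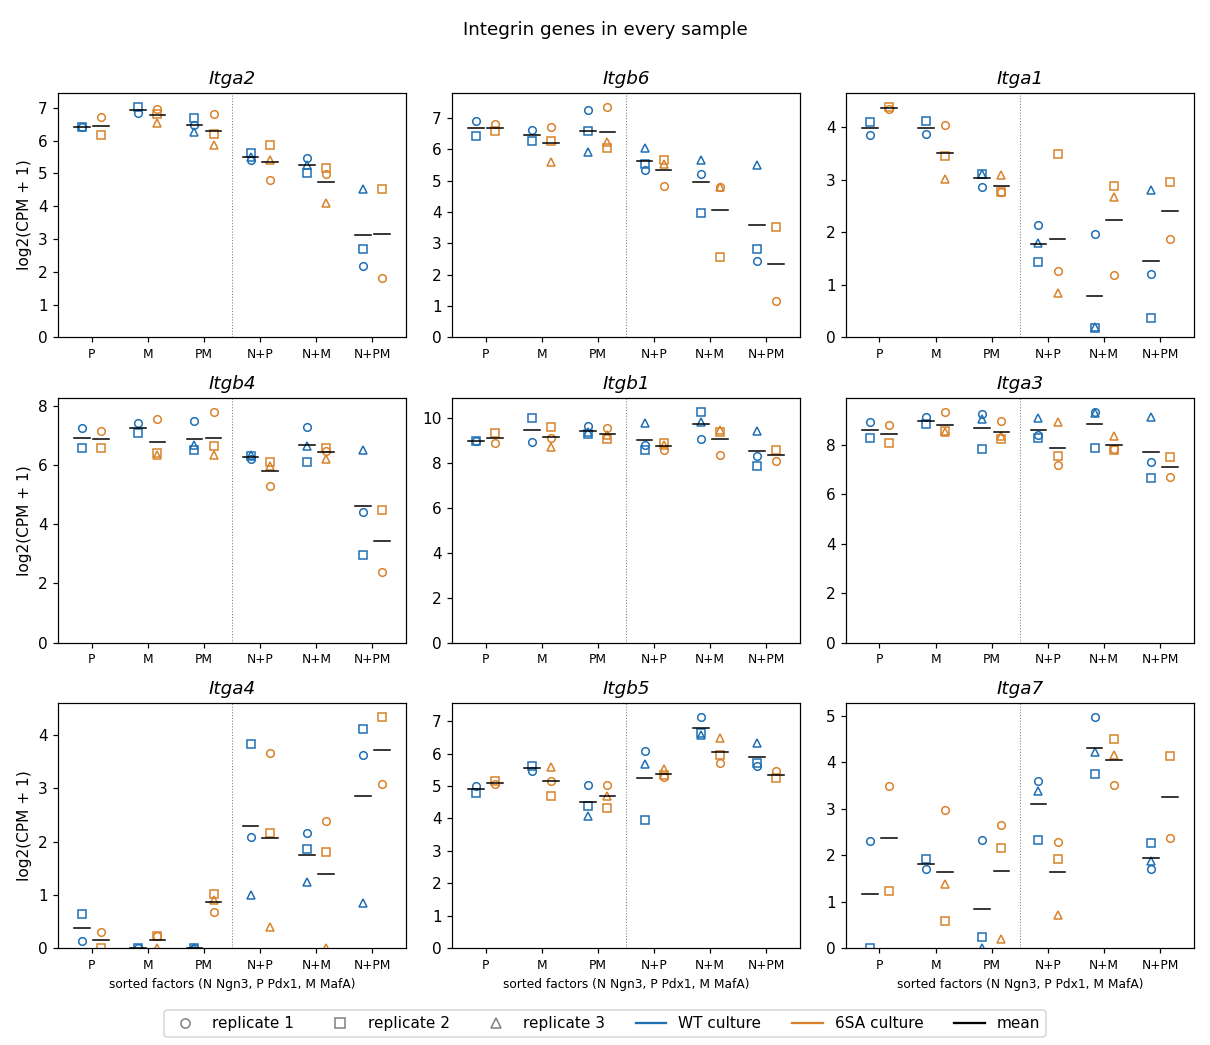
log2(CPM + 1) of 9 integrin genes in the 32 samples, by sorted factors (N Ngn3, P Pdx1, M MafA), with WT cultures in blue, 6SA cultures in orange, 1 symbol per replicate and bars at the mean. Itga2 lies lower in all samples to the right of the dotted line, at 57.3 CPM or less, and Itga4 is raised there except in the triangles of replicate 3, at 1.36 CPM or less.

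Of 11 laminin chains tested, 1 (9.09%) was higher and 5 (45.5%) lower, beside 11.1% and 10.5% of all genes, and the median log2 fold change was -0.46. Of the 5, Lama3 and Lamb3 depended on replicate 1, and Lamc1 was lost in 13 of 44 alternatives. Lama4, the alpha chain usual in vessel and muscle basement membranes, was 19.4 to 75.6 CPM without Ngn3 and 0.146 to 19.4 CPM with Ngn3, with medians of 41.0 and 7.44 CPM. Within each replicate number all samples with Ngn3 were below all samples without it, and the log2 fold change was -2.61 (SE 0.32, adjusted p = 5.16e-07). The endothelial markers summed to 3.06 to 51.7 CPM with Ngn3 and 6.48 to 24.5 CPM without. Of the 9 that passed the filter, 5 (Tek, Pecam1, Tie1, Emcn and Kdr) had no estimate, each with a condition at 0 throughout, and could not be called. Of the other 4 none passed with edgeR, with Flt1 nearest at -2.2 (unadjusted p = 0.015, adjusted p = 0.0652). Their part in the fall of Lama4 was not tested.

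Lamb2, a beta chain of mature basement membranes, had medians of 52.1 CPM without and 14.4 CPM with Ngn3 (log2 fold change -1.95, SE 0.38, adjusted p = 0.0003). Its ranges of 11.3 to 173 and 3.47 to 50.6 CPM overlapped, and its log2 ratio of means was -1.84, -1.24 and -1.63 in replicates 1, 2 and 3. Lama3 and Lamb3, chains of epithelial laminins, also fell. Lamb3 lay at 8.43 to 227 CPM without Ngn3 and 6.73 to 65.3 CPM with Ngn3 (log2 fold change -1.64, SE 0.42, adjusted p = 0.00499). Lama3 lay at 0.264 to 152 CPM and 1.02 to 29.3 CPM (log2 fold change -1.66, SE 0.49, adjusted p = 0.0152).

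For both Lama3 and Lamb3 the difference was mostly that of replicate 1. The log2 ratio of means for Lamb3 was -2.06 in replicate 1, -0.25 in replicate 2 and -0.42 in replicate 3, and for Lama3 it was -2.72, -0.88 and 0.35. Without replicate 1 neither call was made, with -0.51 (adjusted p = 0.415) for Lamb3 and -0.46 (adjusted p = 0.803) for Lama3. Lamc1, the common gamma chain, fell slightly, with medians of 81.8 and 58.9 CPM (log2 fold change -0.53, SE 0.17, adjusted p = 0.0285).

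Lama1, an alpha chain of early embryonic basement membranes, was the laminin chain that rose. It was at 0 in 8 of 15 samples without Ngn3 and at most 1.88 CPM, against 0 to 55.6 CPM with Ngn3 and a median of 6.85 CPM. In replicate 1 all samples with Ngn3, at 6.85 to 28.2 CPM, were above those without, at 0.0576 to 1.88 CPM, and in replicates 2 and 3 the groups overlapped at 0. The log2 fold change was 4.38 (SE 0.98, adjusted p = 0.00145) and the ratio of means was 27.6-fold. The highest value was that of 6SA Ngn3 with MafA replicate 2. Without 6SA Ngn3 with Pdx1 and MafA replicate 1, the remaining sample of that condition was at 0 and Lama1 was not called.

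Lama5 was the most abundant laminin chain per length, at 32.1 CPM per kilobase, and Lamb1 the most abundant beta chain, at 21.3 CPM per kilobase. Lama5 had medians of 311 CPM without and 285 CPM with Ngn3 (log2 difference -0.46, SE 0.26, adjusted p = 0.262), and Lamb1 of 136 and 270 CPM (log2 difference 0.27, SE 0.3, adjusted p = 0.711). As a share of the beta chains on the scale of CPM per kilobase, Lamb1 had a median of 73.4% with Ngn3 (38.9% to 93.5%) and 38.9% without (29.1% to 77.3%). Lama5 made up a median of 92.4% of the alpha chains with Ngn3 and 85.0% without. These shares are given as descriptions, with overlapping ranges.

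Of 40 collagens tested, 6 (15%) were higher and 6 (15%) lower, beside 11.1% and 10.5% of all genes, and the median log2 fold change was 1.03. For 12 of the 40 this contrast had no estimate. The model with 1 Ngn3 term, which estimates them, called 10 (25%) of the 40 higher and 8 (20%) lower. Over all genes that model called 14.1% higher and 11.2% lower. Of the collagen IV chains, which form the basement membrane network, Col4a5 and Col4a1 fell. Col4a5 lay at 15.9 to 106 CPM without Ngn3 and 2.34 to 56.1 CPM with Ngn3, with medians of 50.9 and 20.3 CPM (log2 fold change -1.36, SE 0.26, adjusted p = 0.00028). Col4a1 had medians of 101 and 62.3 CPM (log2 fold change -0.74, SE 0.22, adjusted p = 0.0151), with overlapping groups.

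Col4a2, which pairs with Col4a1 in the most widespread collagen IV, had medians of 74.9 and 54.6 CPM and missed the threshold (log2 difference -0.48, SE 0.18, adjusted p = 0.0609). Col4a1 and Col4a2 lie head to head on opposite strands of chromosome 8 and share annotated exon bases, so their counts are not fully separate. Col4a3, Col4a4 and Col4a6 were low, with means of 1.42, 2.31 and 1.84 CPM, and gave log2 differences of -0.45 (SE 0.66), -0.52 (SE 0.49) and -1.0 (SE 0.73), none of which passed.

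Col14a1, a FACIT collagen, had the largest fitted fall among the called members. It lay at 0.264 to 226 CPM without Ngn3, with a median of 61.3, and at 0 to 20.9 CPM with Ngn3, with a median of 1.9 (log2 fold change -5.18, SE 0.51, adjusted p = 1.81e-08). The lowest sample without Ngn3 was 6SA MafA replicate 3, at 0.264 CPM, and apart from it the lowest was 7.94 CPM. Col12a1, also a FACIT collagen, had medians of 31.4 and 9.29 CPM with overlapping ranges of 8.37 to 77.4 and 0.0868 to 63.2 CPM (log2 fold change -2.24, SE 0.36, adjusted p = 3.53e-05). Col16a1, of the same group, had medians of 10.1 and 0.955 CPM (log2 fold change -2.58, SE 0.73, adjusted p = 0.0105). Col6a1, of the beaded microfibrils, had means of 3.04 and 1.75 CPM, and its direction by the median did not hold in all replicate numbers (adjusted p = 0.0159).

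Of the collagens that rose, Col18a1, the basement membrane collagen whose end fragment is endostatin, was the most abundant, with a mean of 61.1 CPM per kilobase over all samples. It lay at 46.6 to 535 CPM without Ngn3, with a median of 74.0, and at 89.5 to 1603 CPM with Ngn3, with a median of 455 (log2 fold change 1.4, SE 0.43, adjusted p = 0.0183). Replicate 1 stood apart on the side without Ngn3, at 183 to 535 CPM against 48.4 to 84.2 CPM in replicate 2 and 46.6 to 58.8 CPM in replicate 3. In replicates 2 and 3 all samples with Ngn3 were above all samples without it, with log2 ratios of means of 2.98 and 3.48, against 0.96 and overlapping groups in replicate 1. The levels were highest with Ngn3 and MafA, at 1603, 906 and 616 CPM in WT and 1056, 1015 and 1045 CPM in 6SA cultures. With Pdx1 and MafA the means were 257 ± 150 CPM (SD, n = 5) with Ngn3 and 214 ± 243 CPM (n = 6) without. With Pdx1 the gene was not called (edgeR adjusted p = 0.733). The averaged call was lost without replicate 2 and without replicate 3.

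Col9a2 and Col9a3 encode chains of collagen IX and Col11a2 a chain of collagen XI, which together with collagen II build the fibrils of cartilage. Col9a2 was at 0 in 9 of 15 samples without Ngn3 and at most 3.3 CPM, and had a median of 3.84 CPM and a maximum of 78.9 CPM with Ngn3, a 50.9-fold ratio of means (adjusted p = 0.000112). Col9a3 was at most 2.46 CPM without Ngn3 and up to 117 CPM with it, a 35.0-fold ratio (log2 fold change 4.33, SE 0.84, adjusted p = 0.000318), and Col11a2 at most 2.61 CPM without and up to 51.1 CPM with it, an 18.2-fold ratio (log2 fold change 4.07, SE 0.86, adjusted p = 0.000754).

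For all 3 of these genes the groups were apart in replicate 1 and overlapped in replicates 2 and 3. In replicate 1, Col9a2 lay at 9.96 to 78.9 CPM with Ngn3 and 0 to 3.3 CPM without, Col9a3 at 5.31 to 117 and 0.613 to 2.46 CPM, and Col11a2 at 13.1 to 51.1 and 0.691 to 2.61 CPM. In replicate 3 Col9a2 was at most 0.798 CPM. Without WT Ngn3 with MafA replicate 1, whose condition is otherwise at 0, neither Col9a2 nor Col9a3 was called, and without replicate 2 Col11a2 missed the threshold (adjusted p = 0.0515). Col9a3 shares exon bases with Tcfl5. Col2a1, the collagen II chain, had a median of 0.403 CPM with Ngn3 and 0.471 CPM without. Col28a1 (0.548 against 0.0216 CPM, group means) and Col26a1 (1.97 against 0.83 CPM) were also called higher, at levels near the counting limit and with adjusted p of 0.0164 and 0.0261.

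**Figure D3:**
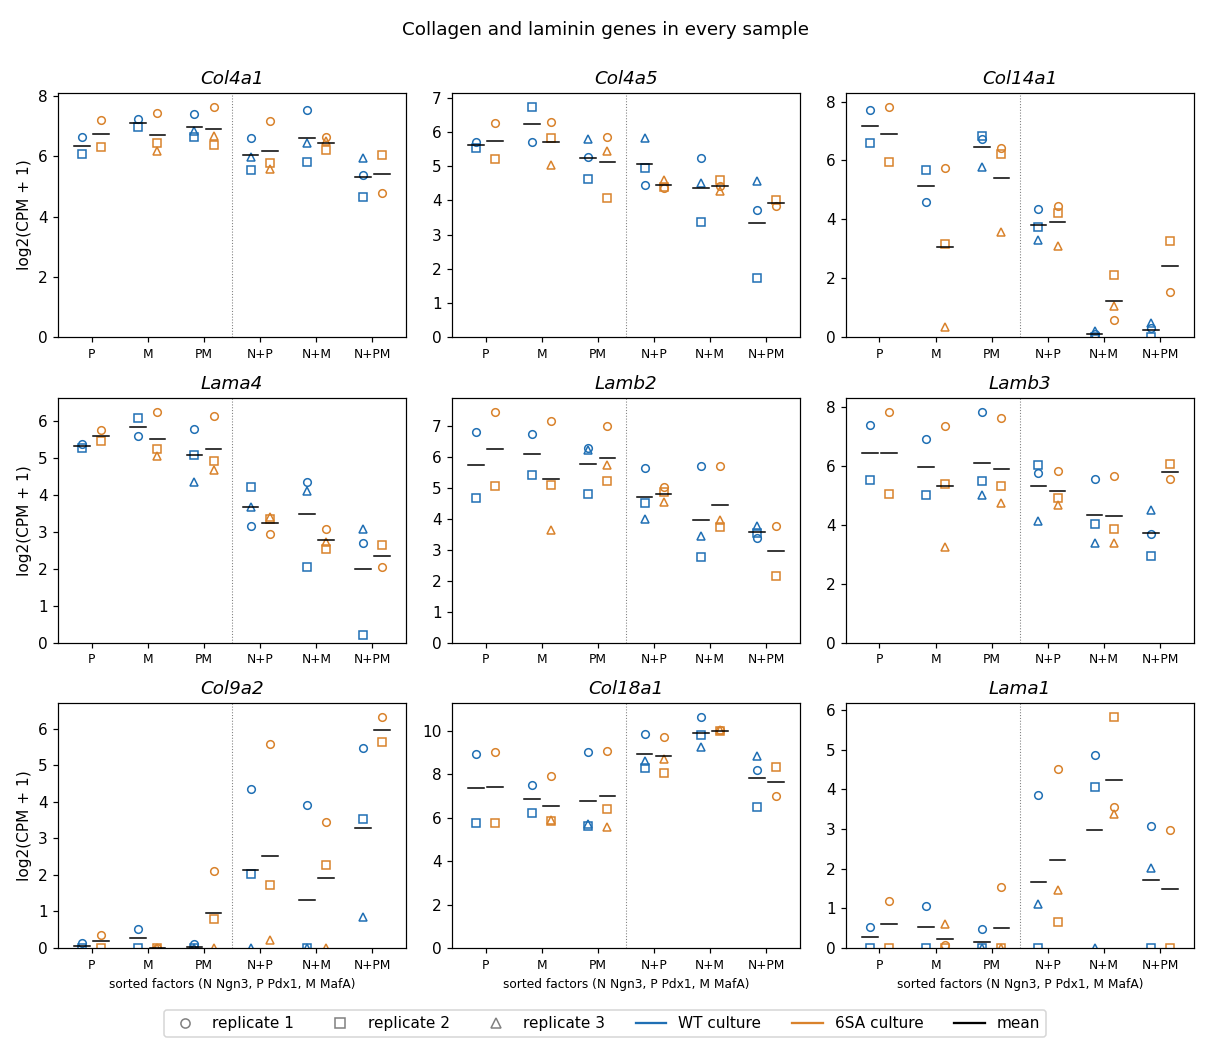
log2(CPM + 1) of 9 collagen and laminin genes in the 32 samples, with groups, colours and symbols as for the integrins and bars at the mean. Lama4 and Col14a1 lie lower with Ngn3, Col18a1 peaks with Ngn3 and MafA at 616 to 1603 CPM, and the rise of Col9a2 is carried by the circles and squares of replicates 1 and 2.

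The model with 1 Ngn3 term called 32 members, 14 higher and 18 lower, which is 43.8% beside 25.4% of all genes, and 24 were called in both models. The 8 members called only there were Col5a3, Col6a5, Col6a4, Col15a1, Lamc3, Col9a1, Col24a1 and Col4a2. The 3 called only in the averaged contrast were Itga7, Itgae and Col26a1. Col15a1, a relative of Col18a1, and Col6a5 were at 0 in all 15 samples without Ngn3 and reached 4.27 and 3.91 CPM with Ngn3. Their medians with Ngn3 were 0 and 0.0453 CPM, with 9 and 8 of the 17 samples at 0. Both passed the gene filter through libraries with Ngn3 alone, so only a rise could be called.

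The 3 factor combinations were then compared singly, and they share no samples with each other. With Pdx1, 0 members were higher and 2 lower, which is 2.74% of members beside 1.49% of all genes (1.32% higher and 0.171% lower). At an unadjusted p under 0.05 there were 14 of the 73 members and 2899 of the 24004 genes. With MafA, 4 were higher and 5 lower, 12.3% beside 4.67% of all genes, of which 2.5% were higher and 2.17% lower. With both, 8 were higher and 13 lower, 28.8% beside 17.8% of all genes, of which 9.42% were higher and 8.4% lower. The median log2 fold change over the members was -0.64 against 0.05 over all genes with both factors. Col14a1 and Lama4 passed in all 3 combinations, though with Pdx1 the call was lost in 15 of 20 alternatives for Lama4 and 4 of 20 for Col14a1. Another 14 members passed only with both factors, which is not a test of a difference between combinations. In the test of the difference of the Ngn3 effect between MafA and Pdx1, 0 members and 0 genes of any kind passed with edgeR. An unadjusted p under 0.05 was found for 4 members and 820 genes. DESeq2 called 0 members, and 9 genes higher and 16 lower over all genes.

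**Figure D4:**
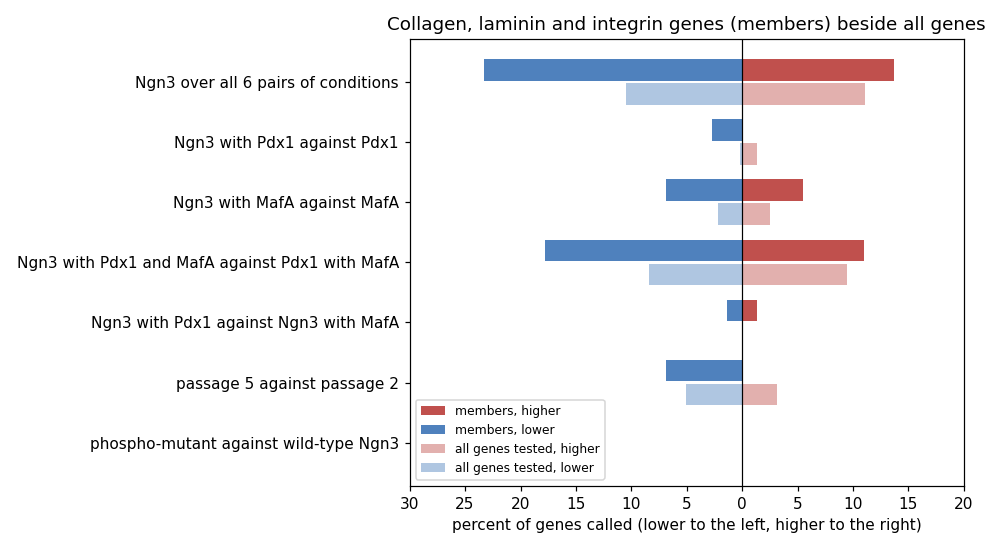
Percent of the 73 tested members (dark bars) and of all 24004 genes tested (pale bars) called lower, to the left, or higher, to the right, in 7 comparisons. Members called lower with Ngn3 reached 23.3% over all pairs beside 10.5% of all genes, and no gene was called for phospho-mutant against wild-type Ngn3.

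With Pdx1, Col14a1 read 226, 61.3, 211 and 95.3 CPM in the 4 samples without Ngn3 and 7.64 to 20.9 CPM in the 6 with it, and the groups did not overlap (log2 fold change -3.35, SE 0.73, adjusted p = 0.0117). Lama4 passed narrowly there (log2 fold change -2.09, SE 0.54, adjusted p = 0.042), a call lost in 15 of 20 alternatives. Itga4 missed the threshold with Pdx1 (log2 difference 4.77, SE 1.29, adjusted p = 0.0626).

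With MafA, Col5a3, a chain of the fibrillar collagen V, was at 0 in all 5 samples without Ngn3. The samples with Ngn3 read 79.4, 15.9 and 10.1 CPM in WT and 2.75, 4.88 and 1.22 CPM in 6SA cultures, and all 6 were above 0. Against the floor of 3 counts per sample, with CPM taken from the totals, Col5a3 was at least 44.2-fold higher (adjusted p = 0.00122). Without 1 pool described below the bound was at least 13.3-fold and the adjusted p 0.00293. Col18a1 (log2 fold change 3.07, SE 0.8, adjusted p = 0.0223) and Itgb5 (1.09, SE 0.31, adjusted p = 0.0398) also rose with MafA, as did Itga4 (adjusted p = 0.0237), which was at 0.173 CPM or less in the 5 samples without Ngn3. The calls with MafA were lost in 13 of 22 alternatives for Itgb5, 12 for Itga1 and 11 for Col4a5. Itga2 (-1.85, SE 0.41, adjusted p = 0.0059), Col4a5 (-1.6, SE 0.44, adjusted p = 0.0317), Itga1 (-2.54, SE 0.73, adjusted p = 0.0401), Lama4 (-2.59, SE 0.53, adjusted p = 0.0026) and Col14a1 (-6.18, SE 0.9, adjusted p = 7.81e-05) fell.

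With Pdx1 and MafA together, Col12a1 was 8.37 to 36.1 CPM in the 6 samples without Ngn3 and 0.0868 to 2.53 CPM in the 5 with it. The groups did not overlap, and the log2 fold change was -4.85 (SE 0.76, adjusted p = 5.43e-05). Itga2 (-2.91, SE 0.46, adjusted p = 5.93e-05), Itgb6 (-3.31, SE 0.61, adjusted p = 0.000352) and Itgb4 (-2.53, SE 0.5, adjusted p = 0.000768) fell, and for all 3 the fitted fall was larger than that averaged over the combinations. Both Col4a1 (-1.53, SE 0.39, adjusted p = 0.00702) and Col4a2 (-1.07, SE 0.32, adjusted p = 0.0194) were called lower here, with Lamb2, Lama3, Lamc1, Lama4, Col4a5, Col14a1 and Col6a1. Of these, the call was lost in 12 of 21 alternatives for Lamc1, 8 for Lama3, 7 for Col6a1, 6 for Col4a5 and 5 for Col4a2.

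Those called higher with both factors were Itga4, Itgb5, Col9a2, Col9a3, Col11a2, Col5a3, Col9a1 and Col6a5. Itga4 read 11.3, 16.4 and 0.798 CPM in WT and 7.53 and 19.3 CPM in 6SA cultures, against 0 in all 3 WT samples and 0.589, 1.01 and 0.857 CPM in the 6SA samples without Ngn3. The 0.798 CPM of WT replicate 3, at passage 5, overlapped the samples without Ngn3. Col9a1 and Col6a5 were at 0 in all 6 samples without Ngn3 and low with it. Col9a1 read 0.972, 1.9 and 0 CPM in WT and 0.339 and 0.0868 CPM in 6SA cultures, and its call was lost in 5 of 19 alternatives. Col6a5 read 1.38, 0.731 and 2.92 CPM in WT and 0 and 0.347 CPM in 6SA cultures, and its call was lost in 14 of 20 alternatives. With 0 counts in every sample without Ngn3, only a rise of Col6a5 could be called.

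Between the 2 single combinations in cells with Ngn3, Col14a1 was higher with Pdx1 than with MafA and Col5a3 lower, and these were the 2 members that passed, 2.74% beside 0.133% of all genes, of which 0.0875% were higher and 0.0458% lower. Col14a1 read 7.64 to 20.9 CPM with Ngn3 and Pdx1 and 0 to 3.32 CPM with Ngn3 and MafA, without overlap (log2 fold change 5.27, SE 0.87, adjusted p = 0.00726). Col5a3 read 0 to 2.7 CPM with Ngn3 and Pdx1 against 1.22 to 79.4 CPM with Ngn3 and MafA (log2 fold change -6.32, SE 1.19, adjusted p = 0.0239). With 1 pool left out, the Col5a3 value was -5.34 and the adjusted p 0.0686. In cells without Ngn3, Pdx1 against MafA gave 0 members and 0 genes with edgeR, and 4 members and 675 genes at an unadjusted p under 0.05. DESeq2 called 0 members, and 18 genes higher and 6 lower over all genes.

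Whether phospho-mutant Ngn3 acts differently from wild type was the question of the next comparison. No member and none of the 24004 genes passed with edgeR. At an unadjusted p under 0.05 there were 10 members and 1422 genes. DESeq2 called 10 genes higher and 16 lower over all genes, with 1 member among them, Col14a1 (log2 fold change 3.04, adjusted p = 0.0165). Col14a1 read 0.489, 3.32 and 1.07 CPM with 6SA Ngn3 and MafA against 0.0807, 0 and 0.151 CPM with WT, and 1.9 and 8.68 CPM against 0.243, 0 and 0.399 CPM with Pdx1 added, without overlap in either combination. With Pdx1 alone the 6SA samples read 20.9, 17.6 and 7.64 CPM and the WT samples 19.6, 12.5 and 8.86 CPM, which overlap. The edgeR log2 difference over the 3 combinations was 2.96 (SE 0.71, adjusted p = 0.771).

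Col5a3 gave a log2 difference of -3.64 between 6SA and WT (SE 0.91, adjusted p = 0.78), which did not pass, with 2.75, 4.88 and 1.22 CPM against 79.4, 15.9 and 10.1 CPM alongside MafA. The 79.4 CPM rests on 1 pool described below, without which that sample read 1.4 CPM (from totals) and the WT and 6SA samples overlapped. For Itga2 the log2 difference between the forms was -0.11 (SE 0.33), for Itga4 0.08 (SE 0.75), for Col18a1 -0.13 (SE 0.57) and for Itgb6 -0.9 (SE 0.44), and none of these passed, which does not show that the forms act alike. In cells without Ngn3, 6SA against WT cultures gave 0 members and 0 genes with edgeR, and 2 members and 591 genes at an unadjusted p under 0.05. DESeq2 called 0 members, and 6 genes higher and 2 lower over all genes. For the difference of the Ngn3 effect between 6SA and WT cultures, edgeR called 0 members and 0 genes. The counts at an unadjusted p under 0.05 were 3 members and 647 genes. DESeq2 called 0 members, and 1 gene higher and 4 lower over all genes.

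Passage 5 was compared with passage 2 over all conditions, with the limit that passage 5 is replicate 3 alone. No member was higher and 5 were lower, 6.85% of members beside 8.23% of all genes, of which 3.15% were higher and 5.07% lower. The median log2 fold change was -1.05 over the members and -0.26 over all genes. The 5 were Col9a2 (-6.54, SE 1.09, adjusted p = 0.00124), Col9a3 (-3.55, SE 0.97, adjusted p = 0.0252), Itga4 (-2.66, SE 0.77, adjusted p = 0.0338), Col1a1 (adjusted p = 0.0292) and Col1a2 (adjusted p = 0.0446). Of the endocrine markers 6 of 12 were also lower at passage 5 and 0 higher, and their part in these falls was not tested. The values of Col9a2 in the 5 passage 5 samples with Ngn3 were 0, 0.159, 0, 0 and 0.798 CPM, against 9.96 to 78.9 CPM in replicate 1 and 0 to 48.5 CPM in replicate 2.

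Most counts of Col1a1, Col1a2, Col3a1, Col5a1 and Col5a2, chains of fibrillar collagens I, III and V, came from a single pool of 50 cells, technical repeat 2 of WT Ngn3 with MafA replicate 1. It held 1108 of the 1330 counts of Col1a1 in the 58 kept libraries (83.3%), 2325 of 2573 counts of Col1a2 (90.4%) and 213 of 220 counts of Col3a1 (96.8%). For the collagen V chains the shares were 78.1% for Col5a1, 88.2% for Col5a2 and 36.5% for Col5a3, and for Col8a1 25%, so that most counts of the last 2 came from other libraries. Col27a1, another fibrillar chain, was counted in all 32 samples, with a mean of 47.1 CPM. The other pool of the same sample had 7 counts of Col1a1 and 1 of Col1a2. Col1a1 and Col1a2 are the chains of collagen I, the main collagen of connective tissue, so the levels of these 2 genes in the sample describe 1 pool.

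In that pool the pericyte and muscle markers Cspg4, with 305 of 315 counts over all libraries, Des, with 176 of 196, and Pdgfrb, with 20 of 20, were also found. The smooth muscle marker Tagln had 105 counts there, against a median of 11 in the other libraries, and the fibroblast marker Fap had 3. The fibroblast markers Pdgfra, Dcn, Lum, Dpt and Thy1 and the smooth muscle marker Acta2 had 0 counts. Over the samples, the mesenchyme markers summed to 18.5 to 227 CPM with Ngn3 and 11.9 to 107 CPM without, and their part in the collagen results was not tested. Of the 8 that passed the filter, Fap, Des, Pdgfra and Cspg4 had no estimate, each with a condition at 0 throughout, and could not be called. Of the other 4, Tagln was called lower and none higher. Without this pool the passage value of Col1a2 became -5.36 (SE 1.88, adjusted p = 0.0923) and that of Col1a1 -4.54 (SE 1.36, adjusted p = 0.0398). The count of members called for Ngn3 over all pairs was 28 without the pool, against 27 with it.

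**Figure D5:**
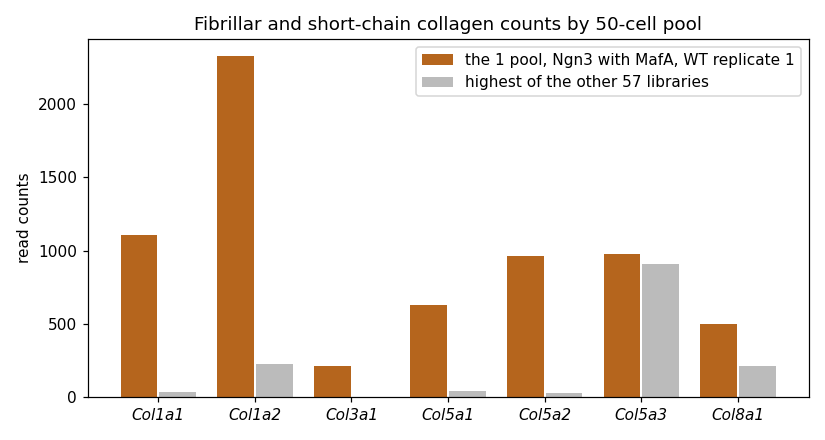
Read counts of 7 collagen genes in technical repeat 2 of WT Ngn3 with MafA replicate 1 and in the highest of the other 57 kept libraries. Col1a2 reaches 2325 counts in the pool against 229 in any other library, whereas Col5a3, at 977 against 905, is not particular to it.

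Genes that work with the collagens, laminins and integrins were read from 7 lists. In this contrast 11.1% of all genes tested were higher and 10.5% lower, with a median log2 fold change of 0.07, and the counts of each list stand beside these shares with no test of the list as a set. List genes for which a condition at 0 throughout left no estimate could not be called. Of the other basement membrane glycoproteins, 1 rose and 6 fell of 19 tested, with a median log2 fold change of -0.94. Those that fell included Agrn, the proteoglycan agrin (-1.2, SE 0.25, adjusted p = 0.000659), Tinagl1 (-2.68, SE 0.34, adjusted p = 9.72e-07) and Nid2, which links laminin to collagen IV (adjusted p = 0.0124). Sparc, a collagen-binding protein, rose (2.98, SE 0.46, adjusted p = 1.98e-05).

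Collagen processing and cross-linking genes gave 10 higher and 2 lower of 28, with a median of 0.45. The procollagen N-proteinases Adamts2 (4.76, SE 0.55, adjusted p = 2.47e-07) and Adamts14 (6.36, SE 0.82, adjusted p = 1.93e-06) and the C-proteinase Bmp1 with its enhancer Pcolce (1.13, SE 0.23, adjusted p = 0.000644, and 3.47, SE 0.55, adjusted p = 2.55e-05) were higher. The lysyl hydroxylases Plod1 (1.13, SE 0.31, adjusted p = 0.00794) and Plod2 (0.85, SE 0.19, adjusted p = 0.00111) rose as well, and Colgalt1, which adds galactose to collagen, fell (-1.01, SE 0.21, adjusted p = 0.000692).

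Of 18 other integrin ligands tested, 1 rose and 8 fell, with a median of -1.36, including Spp1, that is osteopontin (-3.26, SE 0.38, adjusted p = 3.07e-07), Vcam1, Icam1 (-1.81, SE 0.26, adjusted p = 7.95e-06) and Thbs1 (-1.52, SE 0.3, adjusted p = 0.000408). Hemidesmosome genes gave 1 higher and 3 lower of 8 with a median of -0.72. The linker Dst rose (1.4, SE 0.22, adjusted p = 1.91e-05) and the keratins Krt8 (-1.09, SE 0.15, adjusted p = 5.13e-06), Krt18 and Krt14 fell. Spp1, Krt8 and Krt18 are abundant in duct cells, and the duct markers fell with them.

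Integrin adaptors gave 4 higher and 7 lower of 30 with a median of -0.33. Kank2 rose (2.61, SE 0.27, adjusted p = 3.82e-08), while Fermt1, the epithelial kindlin (-1.1, SE 0.18, adjusted p = 2.79e-05), Tns4 (-3.57, SE 0.56, adjusted p = 2.17e-05) and Flna (-1.14, SE 0.22, adjusted p = 0.000248) fell. Matrix proteases and their inhibitors gave 5 higher and 5 lower of 27 with a median of -0.31. Mmp7 fell (-2.91, SE 0.51, adjusted p = 9.57e-05) and Mmp2, which cleaves collagen IV, rose (3.99, SE 0.91, adjusted p = 0.00185). Non-integrin matrix receptors gave 4 higher and 4 lower of 16 with a median of 0.1, among them the syndecans Sdc1 (-1.34, SE 0.22, adjusted p = 5.08e-05) and Sdc4 (-1.92, SE 0.29, adjusted p = 1.19e-05), which fell, and Sdc2 (1.1, SE 0.17, adjusted p = 2.77e-05), which rose.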

How the data were processed

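RNA from pools of 50 sorted cells was sequenced in 61 libraries. The deposited values are counts per gene, made by the authors with GSNAP (mm10) and HTSeq 0.5.3p3 on Ensembl release 81. Libraries over 1000000 gene counts were kept (58 of 61), technical repeats were summed to 32 samples, and the test took genes counted in at least 5 libraries whose log2(CPM + 1) had a variance above 0.001. Unassigned reads (no feature, 8.7% to 31.68% of a library) and the 92 spike-in sequences were left out of totals.

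The counts were tested with edgeR 4.0.16 (R 4.3.3, TMM scaling, quasi-likelihood F test, 12 conditions in 1 model with no block). SE is the log2 fold change divided by the square root of F. Passage was tested in a model of condition plus passage. Benjamini-Hochberg adjustment ran over 24004 genes, with a threshold of 0.05. DESeq2 1.42.0, RLE scaling, other filters, a replicate block, first repeats alone, all libraries and each sample or replicate left out were alternatives. The pipeline was tested on simulated data for the Ngn3 contrast over 24004 genes, in which edgeR recovered 87% of 4-fold and 99% of 16-fold changes, with 9 unchanged genes among 195 called. The changed genes were drawn from those with a mean over 1 CPM, and no replicate, passage or pool effect was simulated. These rates therefore do not cover low genes, and 31 of the 80 members had a mean under 1 CPM.

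The members and the gene lists were chosen with earlier results of these data known. Genes named were taken from the members past the threshold in any comparison, the 5 most abundant members of each family, the chains of the main basement membrane proteins and their receptors, and up to 5 genes of lowest adjusted p per list and direction. Col2a1, Col15a1, Csf1r, Tagln, the 3 duct markers and the members called in the added model were named after their values were seen. Some genes matching the rule on symbols are not reported here.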

Additional observations from a re-analysis of the deposited data

Results flagged for a closer look

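The 3 libraries left out for low totals, all of cells with Ngn3, Pdx1 and MafA, were read for the 10 members higher with Ngn3, on the scale of CPM from library totals. Listed here is a member whose level lay above the highest sample without Ngn3 and that had more than 3 counts. In WT replicate 2, technical repeat 1, these were Itgb5 at 55.9 CPM (highest sample without Ngn3 47.0 CPM), Col11a2 at 9.59 (2.55), Col9a3 at 6.39 (2.37) and Col9a2 at 19.2 (3.16). In 6SA replicate 2, technical repeat 2, they were Itgb5 at 91.1 CPM and Lama1 at 29 CPM (highest without Ngn3 1.81 CPM). In 6SA replicate 3, technical repeat 1, the passage 5 library of that condition, they were Col18a1 at 812 CPM (highest without Ngn3 514 CPM), Itgb5 at 53.8, Col11a2 at 14.7, Col9a3 at 14.7 and Lama1 at 9.79 CPM. Of the 10 members, Itgb5 alone met the rule in all 3 libraries. Itga4, Itga7, Col26a1 and Col28a1 met it in none, and Col26a1 and Col28a1 had 0 counts in each. These libraries enter none of the comparisons above, and several values rest on fewer than 10 counts.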

How the results depend on the processing

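Of 315 counts of called members under alternatives, 252 were within 1.5 times the value reported and 63 were not. Of 2115 log2 fold changes of called members, 1825 kept direction and call, 290 kept direction without the call and 0 reversed. For Ngn3 over all pairs, 10 of the 27 calls (Col12a1, Col14a1, Col4a5, Itga1, Itga2, Itga4, Itgb5, Itgb6, Lama4 and Lamb2) were made under all 44 alternatives. Members called (as reported, then under alternatives) were, with Pdx1, 2, then 7 with DESeq2, 1 with RLE scaling, 1 with first repeats alone and 12 with no gene filter. With MafA they were 9, then 16 and 24 with DESeq2 and no filter. For Ngn3 with Pdx1 against Ngn3 with MafA they were 2, then 1 with the pool left out (chosen after seeing the data), 1 with first repeats and 7 with no filter. For passage they were 5, then 14, 10 and 22 with DESeq2, all 61 libraries and no filter, and 0 in samples without Ngn3 alone. Where 0 members were called, no filter gave 3 for phospho-mutant against wild type, where DESeq2 gave 1, and 2 each for Pdx1 against MafA without Ngn3 and for both tests of a difference of effects. Over all 31181 genes, no filter called 132 higher and 107 lower for the phospho-mutant, and 97 and 16 for Pdx1 against MafA. For the differences of effects it called 63 and 38 by culture, and 44 and 82 by combination. The cause of these shifts in counts was not tested. Leaving out a sample or replicate gave 17 to 29 calls for Ngn3 over all pairs (17 without replicate 1 and 17 without replicate 2), 0 to 4 with Pdx1, 1 to 10 with MafA (1 without replicate 2), 7 to 23 with both (7 without replicate 2, 13 without 6SA Ngn3 with Pdx1 and MafA replicate 1), 0 to 1 for the phospho-mutant, 0 to 0 for 6SA cultures and for Pdx1 against MafA without Ngn3, 0 to 4 between the combinations, 0 to 1 and 0 to 0 for the differences of effects by culture and by combination, and 1 to 11 for passage. Same-numbered samples of different conditions correlated above 0.1 in 12 of 14 pairs (median r 0.379, lowest -0.373, over 5000 genes). Condition pairs with 2 shared replicate numbers give the same r for both, so the 14 values are not all separate. The lowest r is that of 1 condition pair, 6SA Pdx1 and MafA with and without Ngn3. The labels name a WT or 6SA culture but do not say that a replicate number marks 1 shared culture. The main model did not take the numbers as a pairing, which these values do not settle. The replicate block gave 32 calls for Ngn3 over all pairs, 6 with Pdx1, 19 with MafA, 25 with both and 5 between the combinations. Lama3 was not called with it over all pairs or with both factors. Over all 24004 genes the block called 3514 higher and 3106 lower for all pairs, and 837 and 174 with Pdx1. The counts were 1228 and 895 with MafA, 2958 and 2572 with both, and 165 and 51 between the combinations. RLE scaling moved the median of all genes for Ngn3 from 0.07 to 0.15.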
